A study of Mus musculus with 4 samples.

Results

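The immunoglobulin constant region genes encode the stem of the antibody molecule, and 9 of them were examined here by name: the heavy chain genes Ighm, Ighd, Ighg2c, Ighg3 and Igha, the kappa light chain gene Igkc and the lambda light chain genes Iglc1, Iglc2 and Iglc3. They were taken from a fixed list of symbols and not from their measured values. Of the 9 listed genes, 8 had a row in the count table of 15093 genes, and Ighg2c was not analysed here. The genes were followed through the 5794 annotated blood cells of 4 mice, by cell type, by cluster, by treatment and, for the light chains, cell by cell.

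An antibody, or the B cell receptor that carries the same chains on the cell surface, is built from heavy and light chains. A resting B cell transcribes the rearranged heavy chain locus through Ighm and Ighd together and makes IgM or IgD by alternative splicing of the same long transcript, for which Zfp318 is needed. Class switching later replaces Ighm by a downstream gene such as Ighg3 or Igha, and a B cell normally keeps either a kappa or a lambda light chain. In mice kappa is used by most B cells, each Iglc gene lies behind its own joining segments, and plasmablasts are the dividing antibody-secreting cells in which light and heavy chain transcripts become very abundant.

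Peripheral blood mononuclear cells came from 4 wild-type C57BL/6 female mice aged 3.2 ± 0.3 months. Both treated mice were exposed on the ear for 10 min to non-thermal plasma (NTP), a partially ionised gas made here by an argon jet, and both untreated mice were not exposed. All 4 were anaesthetized. Blood was taken from the vena cava 120 min after irradiation in treated mice and 120 min after anaesthesia began in untreated mice. Time under anaesthesia therefore differed with treatment, and its part cannot be told apart from that of NTP. The comparison asks whether skin exposure to NTP is followed by a change in circulating immune cells. Each library came from 1 mouse, so each group had 2 mice. Cell types and clusters are those of the authors, who formed them from the same expression data, so that differences between clusters or cell types are described and not tested.

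The libraries held 4653719 to 7093148 unique molecular identifiers (UMIs, counted transcript molecules) in 993 to 1705 cells, with a median of 3104.5 to 4480.5 UMIs per cell. The libraries shared 4 cell barcodes among the 5794 cells. The annotation named 3130 B cells, 474 plasmablasts, 1517 CD4+ T cells, 600 CD8+ T cells and 73 NK cells. B cells fell into clusters 0, 1, 2 and 10, nearly all annotated plasmablasts into clusters 6 and 9, CD4+ T cells into clusters 3, 5, 7 and 8, CD8+ T cells into cluster 4 and NK cells into cluster 11. UMIs were counted at the 3′ end and not divided by gene length, so no order of abundance is read between different genes, only between cells for the same gene or the same share, and lambda cells are sorted below by the lambda gene with the most UMIs.

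In the GRCm38 annotation (GENCODE vM21) the heavy chain genes lie on chromosome 12, all on the minus strand. Ighm spans chr12:113418558-113422730, Ighd chr12:113406604-113416324, Ighg3 chr12:113356224-113361232 and Igha chr12:113254830-113260236. Igkc is 1 exon at chr6:70726435-70726966 on the plus strand. The lambda genes lie on the minus strand of chromosome 16, Iglc1 at chr16:19061618-19062071 and Iglc3 at chr16:19065230-19065681, with Iglc2 farther away at chr16:19198396-19200351. How well reads can tell the lambda genes apart bears on every light chain value, so their coding sequences were compared. Iglc2 and Iglc3 shared 96.5% of 314 aligned coding bases, with 11 differing, and had a longest run in common of 79 bases. Iglc1 shared 74.8% of 313 aligned coding bases with Iglc2, with a longest common run of 19 bases. Of all 50-base windows of the Iglc2 transcript, 10.51% occurred unchanged in Iglc3, and no window of 50 bases was shared between Iglc1 and the other lambda genes. No window of 90 bases was shared between Iglc2 and Iglc3, and the libraries were sequenced with longer reads. Iglc2 and Iglc3 are thus the pair most open to mixed counting, and how the counting assigned their reads was not tested. The 30 coding bases in which Iglc2 and Iglc3 differ most (3 positions) are printed below from the GENCODE transcripts, on the gene's own strand, and capitals mark the 7 positions at which the lambda genes are not all alike. They lie at chr16:19062027-19062056 for Iglc1, chr16:19198808-19198837 for Iglc2 and chr16:19065637-19065666 for Iglc3.
Iglc1: cGccATcAGtcaccCtgtttccaccttccT
Iglc2: cTccCAcTCtcaccGtgtttccaccttccT
Iglc3: cTccCAcACtcaccAtgtttccaccttccC

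Ighm, the heavy chain of IgM, was highest in the cells annotated as plasmablasts. These cells held 18.9 and 15.03 UMIs per cell in treated animals against 16.2 and 13.9 in untreated animals. B cells held 9.27 and 7.56 UMIs per cell in treated animals against 8.59 and 6.78 in untreated animals. Every mouse thus had more Ighm in annotated plasmablasts than any mouse had in B cells. NK cells followed at 0.931 ± 0.417, CD8+ T cells at 0.742 ± 0.201 and CD4+ T cells at 0.649 ± 0.166 UMIs per cell (mean ± SD, n = 4 mice), and these last values overlapped. At least 98.3% of B cells in each mouse had an Ighm UMI. After every cell was thinned to 2000 UMIs, which left out 224 shallower B cells, 96.0% to 97.7% still did.

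Ighd, the heavy chain of IgD, ran the opposite way between these cell types. B cells held 2.96 and 2.35 Ighd UMIs per cell in treated animals against 3.09 and 2.06 in untreated animals. Annotated plasmablasts held 1.21 and 1.13 in treated animals against 1.69 and 1.17 in untreated animals. The lowest B cell value was above the highest plasmablast value. CD4+ T cells had 12 Ighd UMIs in 1517 cells and CD8+ T cells 10 in 600 cells.

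The clusters showed that the plasmablast label joins cells with different heavy chain make-up. In cluster 6, which holds 341 cells, Ighm reached 18.9 ± 1.98 UMIs per cell and Ighd 0.846 ± 0.324 (SD, n = 4 mice). Cluster 9, with 109 cells, held 8.13 Ighm and 2.54 Ighd UMIs per cell over all its cells, inside the range of the B cell clusters 0 to 2. Those had Ighm at 7.94 ± 1.17, 6.78 ± 1.03 and 9.03 ± 0.895 and Ighd at 2.57 ± 0.471, 2.04 ± 0.411 and 3.27 ± 0.450 UMIs per cell. Cluster 10, a small B cell cluster of 80 cells with only 7 in untreated mouse 1, had 15.2 Ighm and 1.66 Ighd UMIs per cell.

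**Figure D1:**
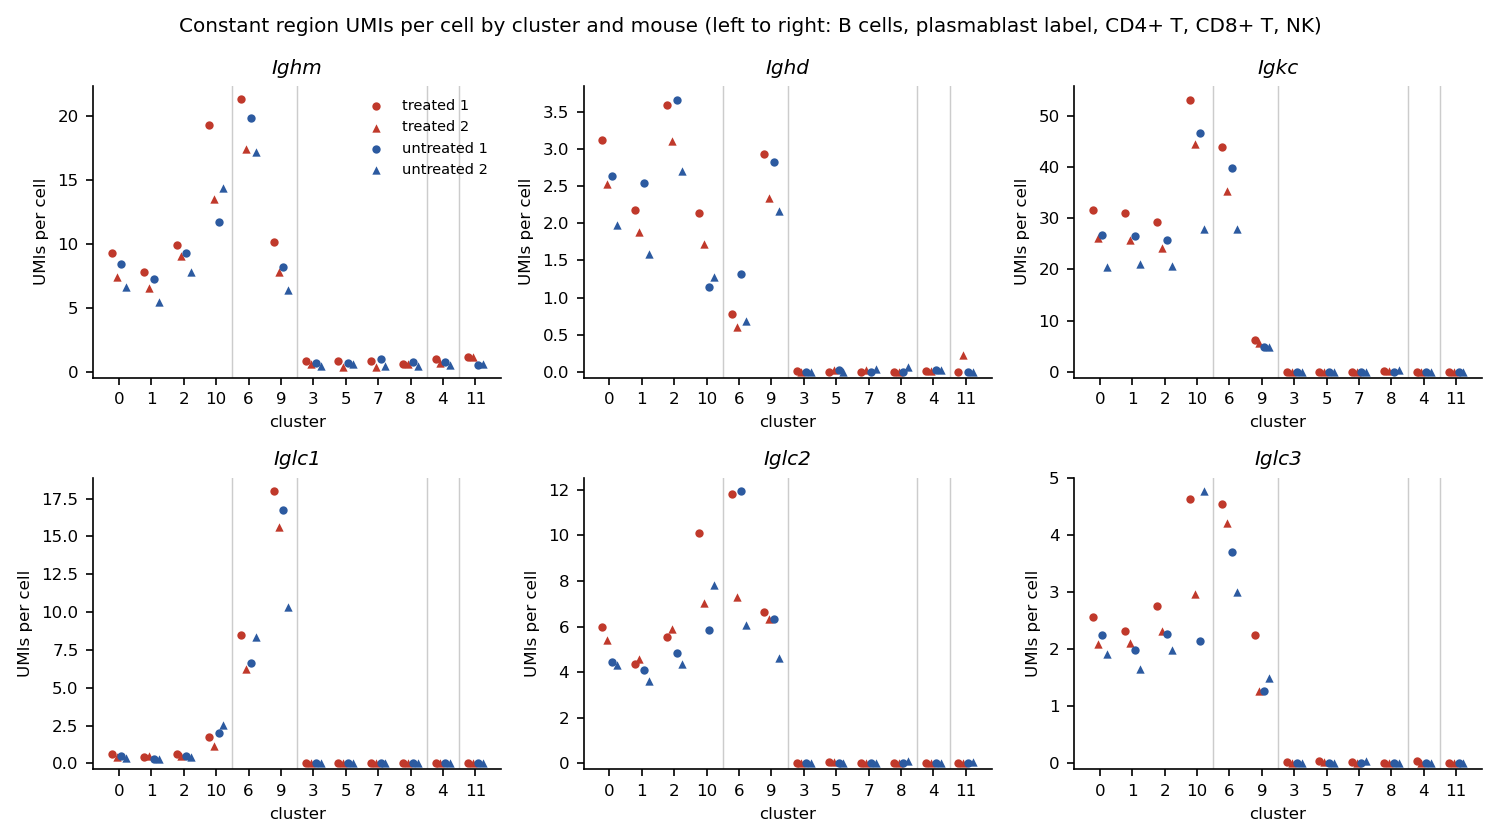
UMIs per cell (vertical axis, from 0) of 6 constant region genes in each cluster (horizontal axis), with 1 point per mouse, red for treated and blue for untreated. Grey lines part B cells, annotated plasmablasts, CD4+ T, CD8+ T and NK cells, and cluster 6 stands out for high Ighm with low Ighd, cluster 9 for high Iglc1 with low Igkc.

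Markers of antibody-secreting cells did not set the annotated plasmablasts apart. Jchain, which joins IgM pentamers and IgA dimers, had 0 UMIs in clusters 6 and 9, against 1 UMI in all of cluster 2. Prdm1, the master regulator of plasma cell fate, had 8 UMIs in cluster 6 and 0 in cluster 9. In CPM (UMIs of a gene scaled to a common total per library or cell group) it was at 5.49 ± 4.48 in cluster 6. In clusters 0, 1 and 2 it was at 1.41 ± 0.535, 3.16 ± 0.401 and 3.78 ± 1.35. The mean was thus higher in cluster 6, with a range over mice from 0 to 10.9. Sdc1, the plasma cell surface protein CD138, had 6 and 1 UMIs in clusters 6 and 9. It was at 5.61 ± 6.63 and 3.34 ± 6.68 CPM there, beside 3.36 ± 1.94 in cluster 0. Xbp1, which expands the secretory apparatus, stood at 25.4 ± 6.48 CPM in cluster 6 and 23.7 ± 16.9 in cluster 9, beside 21.1 ± 5.74 in cluster 0. Mzb1, an endoplasmic reticulum chaperone of B lineage cells, was at 162 ± 24.6 CPM in cluster 6 and 223 ± 32.1 in cluster 9. In clusters 0, 1 and 2 it was at 199 ± 25.6, 208 ± 22.2 and 134 ± 15.1. Cluster 9 thus had the highest Mzb1 mean of these clusters, but its range over mice overlapped with clusters 0 and 1. Irf4, also a listed marker, had means of 76.8 and 54.1 CPM in clusters 6 and 9. Its means in clusters 0, 1 and 2 were 64.1, 53.02 and 77.3 CPM. B cell markers were present throughout, with Cd79a at 3328 ± 389 CPM in cluster 6 and 2784 ± 200 in cluster 9. The markers of antibody-secreting cells therefore do not bear out the plasmablast label. These cells are called annotated plasmablasts, or clusters 6 and 9, in what follows.

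Cluster 6 differed from clusters 0 to 2 in far more than its heavy chains. Of 3533 genes compared, 114 were at least 2 times higher and 46 at least 2 times lower in cluster 6 in every mouse, which is a description because the clusters were made from the same counts. Vpreb3, a partner of the surrogate light chain, was at 1111 ± 232 CPM against a mean of 185 in clusters 0 to 2. Cd24a, a marker of immature B cells, was at 536 ± 83.3 CPM in cluster 6 and 160 ± 44.0 in cluster 0, and Cd93 at 31.5 ± 13.8 and 7.30 ± 4.72. Fcer2a, the low-affinity IgE receptor CD23 of follicular B cells, was lower, at 118 ± 16.2 CPM against 331 ± 29.9 in cluster 0. In cluster 9, by contrast, 2 of 3192 genes were at least 2 times higher (Iglc1 and the lambda variable gene Iglv1) and 3 at least 2 times lower (Igkc, Gm30211 and 2010309G21Rik). Gm30211 is a long non-coding RNA at chr6:70719074-70740554 whose span contains Igkc on the same strand. 2010309G21Rik lies at chr16:19051367-19106749 on the strand opposite to Iglc1 and Iglc3. All the genes that this rule set apart in cluster 9 were thus light chain genes or transcripts over a light chain locus. The rule had a floor of 50 CPM for both clusters, and cluster 9 held 22 to 30 cells per mouse.

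The share of Ighd among Ighm plus Ighd UMIs set clusters 6 and 10 apart from the other B lineage clusters. It was 24.3% ± 1.10 in cluster 0, 23.1% ± 1.89 in cluster 1, 26.5% ± 1.22 in cluster 2 and 24.03% ± 1.57 in cluster 9 (SD, n = 4 mice). Cluster 10 stood at 9.57% ± 1.39 and cluster 6 at 4.23% ± 1.35, with a range over mice in cluster 6 of 3.33% to 6.23%. No mouse of clusters 6 or 10 reached the lowest value of the other 4 clusters, whereas clusters 0, 1 and 9 overlapped with each other and cluster 1 also with cluster 2. In cluster 6, 59.5% of cells had Ighm but no Ighd UMI, compared with 14.3% in cluster 0 at a similar depth (medians of 3466 and 3269 UMIs per cell). Zfp318, the nuclear protein needed to make the Ighd message, followed the same order. It was at 56.8 ± 22.7 CPM in cluster 6 and 77.6 ± 20.1 in cluster 10, and at 133 ± 31.0, 141 ± 30.5, 185 ± 20.3 and 263 ± 52.6 CPM in clusters 1, 9, 0 and 2.

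**Figure D2:**
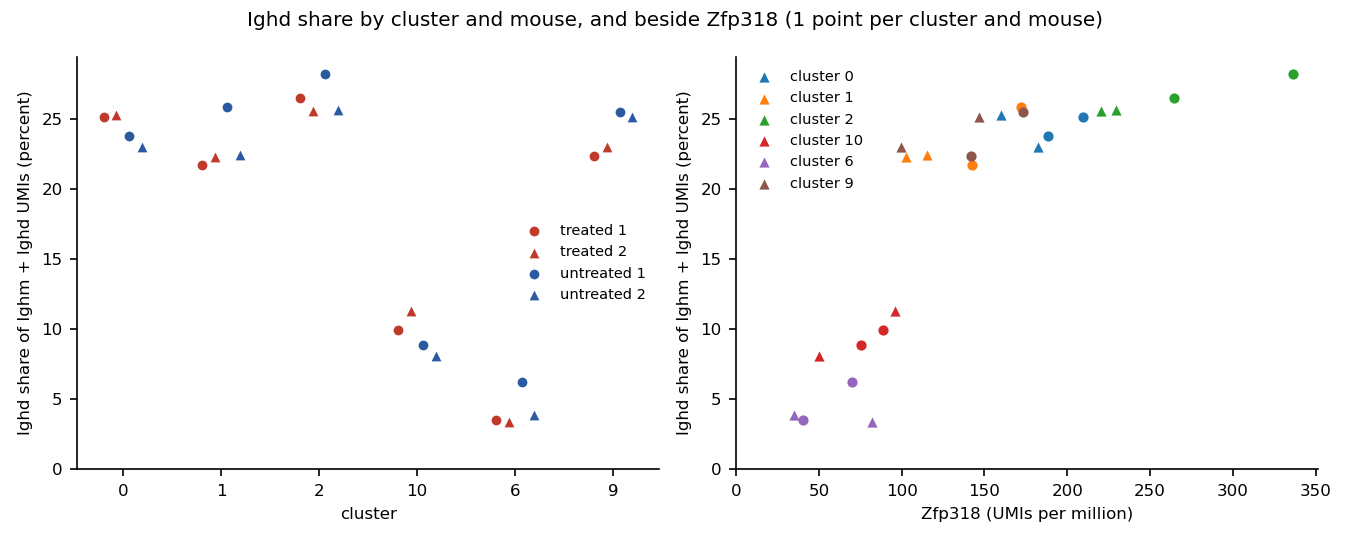
Left, the Ighd share of Ighm plus Ighd UMIs (percent) by cluster, 1 point per mouse, red for treated and blue for untreated. Right, the same share against Zfp318 (CPM), coloured by cluster, with circles for replicate 1 and triangles for replicate 2 of each group; clusters 6 and 10 sit low on both axes.

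Over 20 sums (5 clusters in 4 mice, leaving out cluster 10 for its 7 cells in untreated mouse 1), the genes whose log2 CPM ran most like each member were listed among 5695 genes. These correlations are descriptions, since the points share mice and clusters. Ighm ran most like Ms4a1, the B cell surface protein CD20 (r = 0.970), Vpreb3 (0.957) and Ptpn6, a phosphatase that restrains receptor signalling (0.952). Among the genes most like Ighd were Rapgef4 (0.949) and H2-Eb1, an MHC class II chain (0.945), and its correlation with Zfp318 was 0.826. Igkc ran most like Gm30211 (0.864), Psma4 (0.854) and Pnpt1 (0.847). The sum of the lambda genes ran most like Spsb3 (0.829), Abcf1 (0.820) and Psmd8 (0.793).

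Igkc, the only kappa constant gene, was similarly abundant in B cells and annotated plasmablasts when all cells were summed. B cells held 31.2 and 26.1 UMIs per cell in treated animals against 26.5 and 20.97 in untreated animals. Annotated plasmablasts held 36.4 and 28.5 in treated animals against 28.0 and 19.9 in untreated animals. The values of the cell types overlapped. Within the label the clusters lay far apart, with 36.7 ± 6.86 UMIs per cell in cluster 6 and 4.83 to 6.18 in cluster 9. Cluster 10 reached 42.5 UMIs per cell over its 80 cells.

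Iglc1 showed the widest gap of any member between the B lineage groups. B cells held 0.545 and 0.461 UMIs per cell in treated animals against 0.408 and 0.420 in untreated animals. Annotated plasmablasts held 9.85 and 7.96 in treated animals against 9.83 and 8.66 in untreated animals. The lowest plasmablast value was far above the highest B cell value. Both clusters contributed, with 7.43 ± 1.15 UMIs per cell in cluster 6 and 18, 15.6, 16.8 and 10.3 in cluster 9 of treated mice 1 and 2 and untreated mice 1 and 2. Iglc2 stood at 4.76 ± 0.506 UMIs per cell in B cells and 8.80 ± 2.37 in annotated plasmablasts, and Iglc3 at 2.22 ± 0.279 and 3.25 ± 0.675, and the Iglc3 ranges overlapped (at most 2.60 in B cells, at least 2.54 in annotated plasmablasts).

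Iglc2 UMIs were found in most B cells, at low and at high kappa levels. In the 4 mice 92.2% to 95.3% of B cells had an Iglc2 UMI, and 80.9% to 89.0% after thinning to 2000 UMIs. Among CD4+ T cells, which should not express the gene and had a higher median depth (4429 against 3364 UMIs), the share was 1.78%. B cells without any Igkc UMI (33 cells) held 9.21 Iglc2 UMIs per cell, and 66.7% of them had an Iglc2 UMI, as did 73.9% of the 46 B cells with 1 to 4 Igkc UMIs. B cells with 10 to 19 Igkc UMIs (891 cells) held 4.09, and those with at least 50 (229 cells) held 6.69, of which 96.1% had an Iglc2 UMI. Iglc2 therefore did not fall to the T cell level in any band of Igkc, and the band with the most Igkc also had the deepest cells (median 4777 UMIs). Iglc1 was seen in 21.2% of B cells with 10 to 19 Igkc UMIs and in 31.9% of those with at least 50. The source of lambda UMIs in cells rich in Igkc was not tested.

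To assign a light chain class, cells with at least 5 light chain UMIs were called kappa or lambda where that chain made up at least 80% of them, and otherwise called both. Of 3130 B cells, 1468 were kappa, 40 lambda, 1597 both, and 25 had too few UMIs. Lambda B cells numbered 7 and 17 in treated animals against 8 in each untreated mouse. The lambda share of B cells with 1 class was 1.65% and 3.77% in treated animals against 3.01% and 2.19% in untreated animals, and the groups overlapped (treated minus untreated 0.112 percentage points, two-sided exact permutation test p = 1, with 0.333 the smallest p that 2 against 2 mice can give). Cells called both made up 48.3% and 52.7% of classed B cells in treated animals against 46.3% and 56.2% in untreated animals, again overlapping. Under 10 UMIs and a share of 95%, cells called both rose to between 92.7% and 95.5% of classed B cells. That class therefore gives no count of cells that carry both chains.

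Annotated plasmablasts held many more lambda cells. Of 474 cells, 110 were kappa, 116 lambda and 244 both. The lambda share of cells with 1 class was 50.7% and 43.8% in treated animals against 59.5% and 56.0% in untreated animals. Both treated mice lay below both untreated mice, by 10.52 percentage points on average (two-sided exact permutation test p = 0.333, the smallest possible). The direction turned under 10 UMIs and 95%, where 3 kappa cells were left in each mouse, with 90.3% and 85.7% in treated and 81.3% and 82.4% in untreated mice. The difference was -5.39 points after thinning and -3.26 with the Igkc cutoff given below, under which the mice overlapped (20.8% and 18.3% against 20.6% and 25%). Cluster 9, whose cells are mostly lambda, made up 17.3% and 20.4% of annotated plasmablasts in treated mice and 31.0% and 30.3% in untreated mice, and its part in the difference was not tested. By cluster, cluster 9 had 0 kappa, 71 lambda and 37 both, so 0 of its 71 cells with 1 class were kappa. Cluster 6 had 108 kappa, 35 lambda and 195 both.

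**Figure D3:**
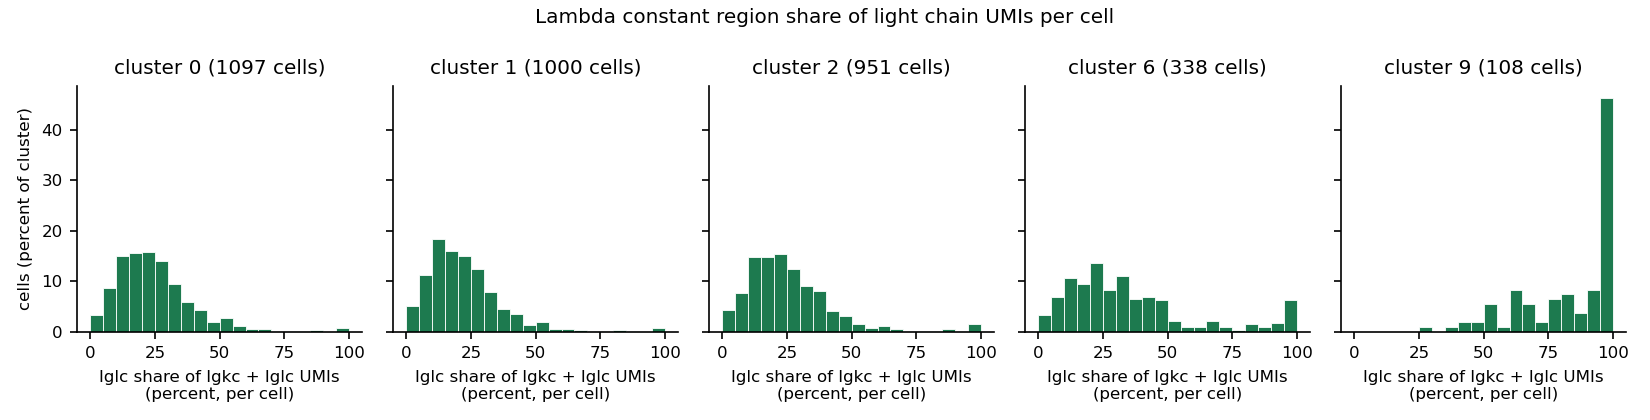
Histograms of the Iglc1 to Iglc3 share of all light chain constant UMIs per cell (horizontal axis, percent, bins of 5) in clusters 0, 1, 2, 6 and 9, as a percent of the cells in each cluster (vertical axis). The median lies at 21.9%, 19.4%, 22.2%, 28.99% and 94.1%, and cluster 6 has a small second group near 100%.

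The lambda genes of lambda cells were compared next. Since Iglc2 was present in most B cells, lambda cells were also chosen, after the data were seen, as those with fewer than 5 Igkc and at least 10 lambda UMIs, which gave 33 B cells and 96 annotated plasmablasts. Of the 33 B cells, 27 had Iglc2 as the highest lambda gene, 4 had Iglc3 and 2 had Iglc1. Among the 96 annotated plasmablasts, 65 were led by Iglc1, 29 by Iglc2 and 2 by Iglc3. Cluster 9, which Iglc1 sets apart, held 63 of the 96, of which 49 were led by Iglc1, and cluster 6 held 24, of which 16 were. Iglc1 led 20 of 33, 19 of 26, 9 of 14 and 17 of 23 of these plasmablasts in treated mice 1 and 2 and untreated mice 1 and 2, and at most 1 lambda B cell per mouse. The Iglc1-led plasmablasts held 22.8 Iglc1 and 5.49 Iglc2 UMIs per cell, and the Iglc2-led ones 25.8 Iglc2 and 9.07 Iglc1. Variable genes split the same way: over both cell types, 15 of 67 Iglc1-led cells had a UMI of Iglv1 and 1 had one of Iglv2 or Iglv3, compared with 4 and 9 of 56 Iglc2-led cells. The known mouse lambda locus places Iglv1 with Iglc1 and Iglc3, and Iglv2 and Iglv3 with Iglc2.

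Lambda and kappa B cells of the 80% rule were then compared gene by gene within mice. Igkc, Iglc1, Iglc2 and Iglc3 were left out, whereas light chain variable genes and Gm30211 were not left out beforehand. The 40 lambda cells had a median depth of 3580 UMIs and the 1468 kappa cells 3370.5. Of 5826 genes, 3 passed an adjusted p of 0.05 (edgeR quasi-likelihood test with the mouse as a block), which is 0.0515% of those tested. Ighm and Ighd were not among them. Ighm was at 2542 ± 167 CPM in kappa and 1989 ± 223 in lambda cells (log2 fold change -0.35 ± 0.18 SE, edgeR adjusted p = 0.949), and the difference was -0.15 under RLE scaling and -0.0069 with equal numbers of kappa cells. Per cell, Ighm UMIs were higher in lambda cells in both untreated mice (9.63 against 8.19 and 7.25 against 6.68) and lower in both treated mice. Ighd was at 832 ± 30 and 757 ± 179 CPM, with a log2 fold change of -0.13 ± 0.22 that turned to 0.08 under RLE scaling.

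Gm30211, the transcript over Igkc, was lower in lambda cells, with a log2 fold change of -2.95 ± 0.54 (edgeR adjusted p = 0.00012). Its span contains Igkc on the same strand, and Igkc UMIs define the classes. Its call is therefore not independent of the class rule. Gm30211 had 1146 UMIs in the 1468 kappa cells, and in lambda cells 5 UMIs in treated mouse 2 and none in the other mice. Agbl1, which encodes a carboxypeptidase, was higher by 4.05 ± 0.50 (edgeR adjusted p = 6.1e-12), but its 35 UMIs lay in 7 of the 40 cells, up to 11 in 1 cell. Agbl1 was at 1371 ± 263 CPM in cluster 6 and 27.6 in clusters 0 to 2. Bank1, a scaffold of B cell receptor signalling, was lower by 0.88 on the log2 scale (-0.88 ± 0.19, edgeR adjusted p = 0.00504), in 4 of 4 mice on TMM-scaled CPM of sums of 7 to 17 lambda cells. In treated mouse 1 lambda cells held 9.29 Bank1 UMIs per cell and kappa cells 8.69, at median depths of 4325 and 4024 UMIs. The adjusted p of Bank1 was 0.078 under RLE scaling, 0.277 without untreated mouse 1 and 0.628 without untreated mouse 2. With DESeq2 only Agbl1 passed. Under 10 UMIs and 95%, and with equal numbers of kappa cells, the filter left 637 and 333 genes, with Bank1 tested and not passing and Agbl1 and Gm30211 not tested.

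Class-switched transcripts were rare. Igha, the IgA heavy chain, had 53 UMIs in 28 of 5794 cells, of which 26 were B cells and 2 CD4+ T cells. Only 4 cells, all B cells, had at least 2 Igha UMIs. The first had 11 Igha UMIs (untreated mouse 1, cluster 10), the next 10 (treated mouse 2, cluster 10), the next 5 (untreated mouse 2, cluster 1), and these had no Ighm and no Ighd UMI. The last had 3 Igha UMIs beside 7 of Ighm and 5 of Ighd. Cells with at least 2 UMIs of a switched member made up 0% and 0.0909% of B lineage cells in treated animals against 0.176% and 0.213% in untreated animals. With 1 UMI as the rule the values were 0.804% and 1.09% against 0.879% and 0.532%, which overlapped, and the mean difference changed sign. The rule of 2 UMIs leaves out 2 B cells of treated mouse 2 with at least 2 UMIs of Ighg2b, a gene outside the list, and with them that mouse would hold the most such cells. No annotated plasmablast had an Igha UMI, and 0 of 474 allows a share of cells with a UMI of up to 0.633% (3 counts of the total, counting error only). Ighg3, an IgG heavy chain, had 4 UMIs in 4 cells, 3 of them B cells and 1 an annotated plasmablast, all in treated mouse 1. Among 3604 B cells and annotated plasmablasts, 21 had neither an Ighm nor an Ighd UMI, 17 of these had a light chain UMI and 6 a UMI of Igha, Ighg3 or Ighg2b.

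Constant region UMIs in T and NK cells were almost all Ighm. In CD4+ T cells, 972 of 1071 constant region UMIs (90.8%) were Ighm and 3.08% Igkc, whereas in B cells Ighm made up 18.04% and Igkc 59.2%. CD8+ T cells had 90.8% Ighm and 3.23% Igkc, and the 73 NK cells 66 Ighm and 0 Igkc UMIs. An Ighm UMI was present in 41.0% of CD4+ T cells and 43.5% of CD8+ T cells (medians of 4429 and 5555.5 UMIs per cell), and in 23.1% of CD4+ T cells thinned to 2000 UMIs. By mouse, CD4+ T cells held 0.846 and 0.554 Ighm UMIs per cell in treated and 0.721 and 0.476 in untreated mice.

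**Figure D4:**
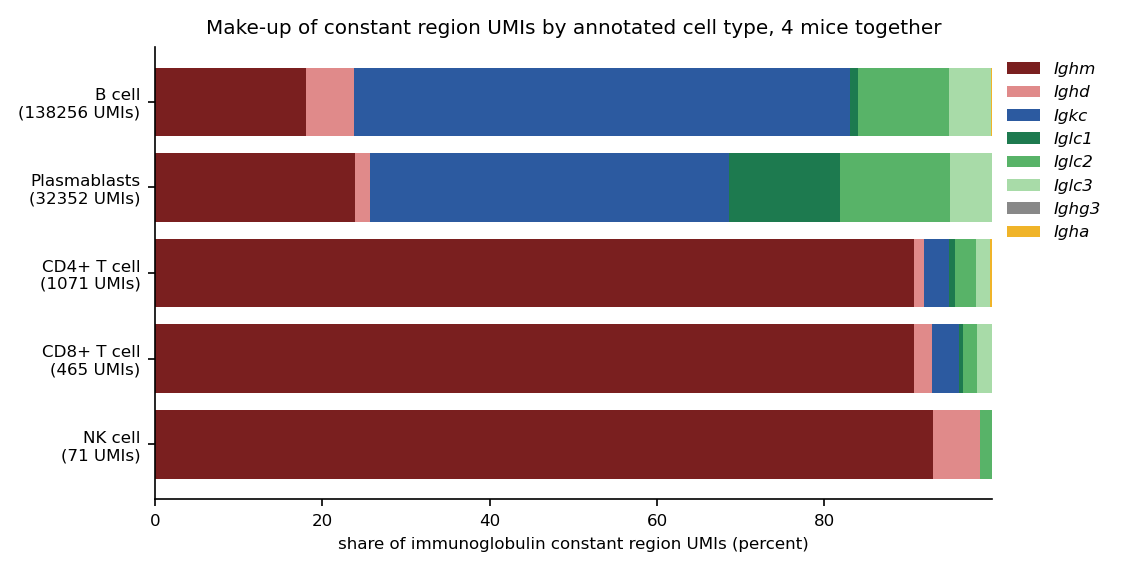
Share of each constant region gene (horizontal axis, percent) among all constant region UMIs of each annotated cell type, with the 4 mice together and the number of UMIs in brackets. Ighm takes 90.8% of these UMIs in CD4+ and CD8+ T cells and 18.04% in B cells, where Igkc takes 59.2%.

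The level of Ighm per CD4+ T cell was 8.04% of that per B cell, between 7.02% and 9.12% in the 4 mice. The other B cell transcripts were far lower on the same scale. Igkc stood at 0.0832% of its B cell level, Ighd at 0.310%, Iglc2 at 0.371%, Cd79a at 0.344%, Cd79b at 0.632%, Ms4a1 at 0.531% and Cd74 at 0.103%. Ighm made up 96.7% of Ighm plus Igkc UMIs in CD4+ T cells (exact 95% interval 95.4% to 97.7%) and 23.4% in B cells (23.1% to 23.6%). These intervals pool the UMIs of 4 mice and leave out the spread between mice. By mouse the share ran from 93.2% to 99.5% in CD4+ T cells and from 22.5% to 24.5% in B cells. Ighd made up 1.22% (0.632% to 2.12%) of Ighm plus Ighd UMIs in CD4+ T cells and 24.3% (23.8% to 24.7%) in B cells. By mouse this share ran from 0.595% to 1.92% and from 23.4% to 26.5%. Leaving out CD4+ T cells with a UMI of Cd79a, Cd79b or Ms4a1 left 1426 cells, with 0.634 Ighm UMIs per cell and 40.5% of cells with a UMI. The authors corrected for free RNA with SoupX, and its part in these ratios was not tested. All constant region UMIs together made up 0.0176% and 0.0138% of CD4+ T cell UMIs in treated and 0.0145% and 0.0152% in untreated mice, which overlapped (two-sided exact permutation test p = 1).

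The effect of NTP was tested on UMIs summed per mouse and cell type. In bulk sums of this kind a change in RNA per cell and a change in the mix of cells within the type cannot be told apart. In B cells no gene passed an adjusted p of 0.05 (edgeR, 9903 genes, 0% called, 460 genes at an unadjusted p under 0.05, and 0 called by DESeq2). Of the 8 members with a row, 7 were tested in B cells, since Ighg3 did not pass the filter on low counts with its 3 UMIs. Igkc was at 7528 and 7933 CPM in treated animals against 6455 and 7305 CPM in untreated animals. Both treated mice lay above both untreated mice, with a log2 fold change of 0.17 ± 0.09 SE (edgeR adjusted p = 0.934). It was 0.083 without untreated mouse 1, 0.25 without untreated mouse 2 and 0.034 with equal cells per cluster. Ighd was at 713.9 and 715 CPM in treated and 753 and 719 in untreated mice, and so lay slightly lower in both treated mice (-0.04 ± 0.09, edgeR adjusted p = 0.983). Non-overlap of the groups was common, with 34.9% of all tested genes showing it, so 2 of 7 members is no more than the background.

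The other members overlapped between the groups in B cells. Ighm was at 2236 and 2298 CPM in treated and 2091 and 2360 in untreated mice (log2 fold change 0.03 ± 0.09). Iglc1 was at 131 and 140.3 CPM in treated and 99.2 and 146 in untreated mice (0.14 ± 0.15). Iglc2 was at 1267 and 1548 against 1110 and 1445 CPM (0.14 ± 0.12), and Iglc3 at 626 and 656 against 535 and 671 CPM (0.09 ± 0.11). Untreated mouse 1 was the lowest of the 4 for Ighm, Igkc and all lambda genes, and without it the log2 differences of Ighm, Iglc1, Iglc2 and Iglc3 turned to between -0.11 and -0.04. Igha had 4 and 21 UMIs in treated and 15 and 11 in untreated B cells (-0.61 ± 0.61).

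In annotated plasmablasts no member passed the test either. Igkc was at 9803 and 8856 CPM in treated and 7499 and 7005 CPM in untreated mice. Both treated mice were above both untreated mice, by 0.36 ± 0.11 on the log2 scale (edgeR adjusted p = 0.428, unadjusted p = 0.00157). Its adjusted p was 0.00702 with no filter on low counts and 0.0192 without untreated mouse 1, so the call depends on these choices. Iglc3 was at 1093 and 1090 CPM in treated and 773 and 894 in untreated mice (0.39 ± 0.15, edgeR adjusted p = 0.71). Ighd was at 326 and 350.1 CPM in treated and 453 and 413 in untreated mice, lower in both treated mice (-0.36 ± 0.17, edgeR adjusted p = 0.722). Ighm (0.08 ± 0.11), Iglc1 (-0.15 ± 0.12) and Iglc2 (0.19 ± 0.14) overlapped between the groups. The groups did not overlap for 3 of 6 tested members, against 36.8% of all 5372 genes tested. Igha and Ighg3 were not tested, with 0 and 1 UMIs.

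**Figure D5:**
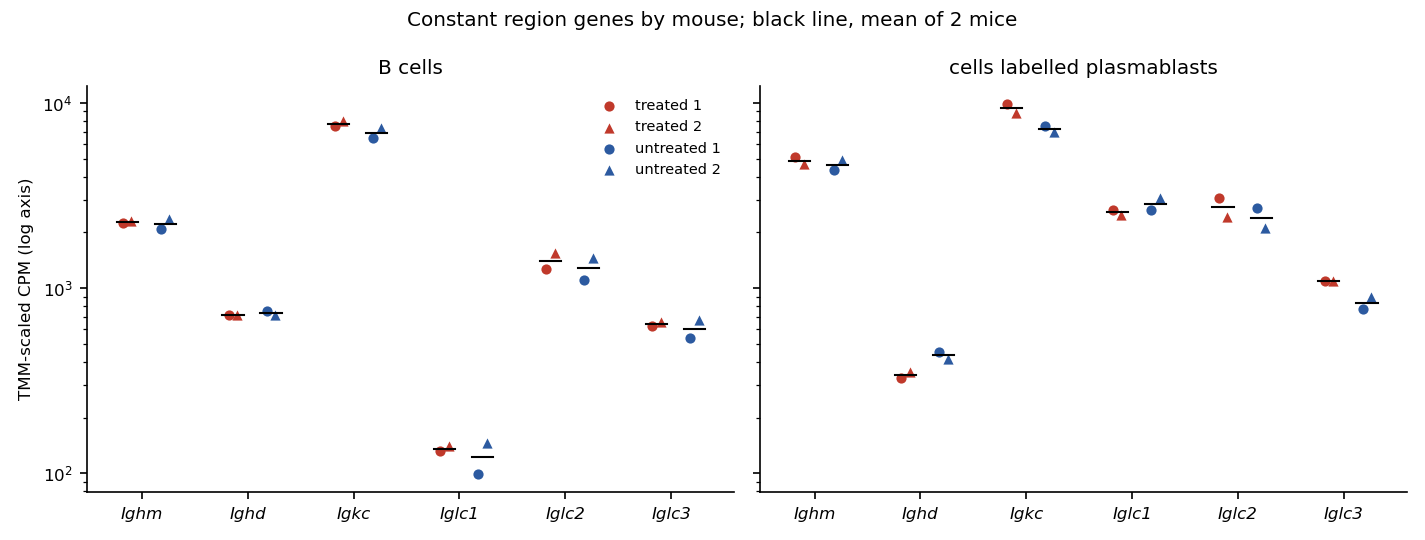
TMM-scaled CPM (vertical log axis) of 6 constant region genes in B cells (left) and annotated plasmablasts (right), 1 point per mouse, red for treated and blue for untreated, with a black line at the mean of 2 mice. Igkc is higher in both treated mice in both panels, whereas Ighm, Iglc1 and Iglc2 overlap.

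The share of cluster 9 in these sums differed between the mice as given above, which was not tested, and cluster 9 holds far less Igkc than cluster 6. Within the annotated plasmablasts of cluster 6 alone, Igkc was at 11068 and 10094 CPM in treated and 9418 and 8880 CPM in untreated mice and still did not overlap. Within cluster 9 it was at 1639 and 1624 against 1440 and 1937 CPM and overlapped. Ighd was lower in both treated mice in each cluster, at 196 and 172 against 281 and 219 CPM in cluster 6 and at 777 and 678 against 827 and 868 CPM in cluster 9. Iglc3 was higher in both treated mice in cluster 6, and Iglc2 lower in both in cluster 9 (1762 and 1823 against 1853 and 1857 CPM). Of all genes at a mean of 50 CPM or more, 39.8% did not overlap between the groups in cluster 6 and 32.6% in cluster 9. The Ighd share of Ighm plus Ighd UMIs in annotated plasmablasts was 6.03% and 6.97% in treated and 9.45% and 7.79% in untreated mice, a difference of -2.12 percentage points (two-sided exact permutation test p = 0.333, the smallest possible). Among the annotated plasmablasts inside cluster 6 it was 3.51% and 3.33% in treated and 5.62% and 3.84% in untreated mice. In B cells it was 24.2% and 23.7% in treated and 26.5% and 23.4% in untreated mice, which overlapped.

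The difference between the treatment effects in annotated plasmablasts and in B cells was tested directly over 9098 genes, with the mouse as a term. The call rate was 0.0330% (3 genes: Hbb-bs, Hba-a1 and Hba-a2, which encode haemoglobin chains), and no member passed. The differences (plasmablasts minus B cells, log2) were 0.31 ± 0.14 for Iglc3, -0.29 ± 0.14 for Iglc1, -0.31 ± 0.17 for Ighd, 0.20 ± 0.10 for Igkc, 0.06 ± 0.11 for Ighm and 0.06 ± 0.12 for Iglc2, each with an edgeR adjusted p of 1. Without untreated mouse 1, the differences of Igkc (0.37, edgeR adjusted p = 0.00199) and Iglc2 (0.46, 0.0414) passed. The Igkc difference was 0.066 without untreated mouse 2 and 0.078 without treated mouse 1. The Iglc2 difference turned to -0.30 without untreated mouse 2 and -0.27 without treated mouse 1.

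Ighm was the only member abundant enough to be tested in T cells. In CD4+ T cells it was at 160.1 and 129.8 CPM in treated and 139 and 131 CPM in untreated mice, which overlapped (log2 fold change 0.11 ± 0.13, edgeR adjusted p = 0.927, with 0% of 8680 genes called, 416 at an unadjusted p under 0.05 and 0 called by DESeq2). In CD8+ T cells it was at 160.1 and 127 CPM in treated and 123 and 108 CPM in untreated mice (0.31 ± 0.18, edgeR adjusted p = 0.675, from 0.15 to 0.48 without 1 mouse, with 0.0294% of 6798 genes called, Ccl5 among them). Both treated mice were above both untreated mice there, as for 20.2% of all genes in that direction and 38.5% in either direction.

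Genes that work with the constant regions were counted from lists by role. Of 14 receptor partners, all were tested in B cells and none passed, with a median log2 fold change of -0.00091 against 0.0036 over all genes. An unadjusted edgeR p under 0.05 was found for 3 of them, against 460 of all 9903 genes. Both treated mice lay above both untreated mice for 6 of the 14 and below for 5, against 17.9% and 17.1% of all genes. The near-zero median thus joins genes that went both ways. Cd79a and Cd79b, the signalling chains that escort the receptor, were at 2467 ± 81.6 and 1282 ± 31.6 CPM in treated and 2120 ± 101.2 and 1105 ± 27.4 CPM in untreated mice (SD, 2 mice a group), with log2 differences of 0.22 ± 0.09 and 0.21 ± 0.09 and an edgeR adjusted p of 0.934 for each. The kinases Syk and Lyn, which start and tune signalling, differed by -0.04 ± 0.10 and -0.02 ± 0.09. Of 18 regulators of immunoglobulin transcription, splicing and switching, 16 were tested and none passed, with 2 at an unadjusted p under 0.05 and a median of -0.07. Both treated mice lay above both untreated mice for 2 of the 16 and below for 2. Ebf1, Mef2c, Bach2 and Ikzf3, all transcription factors of B cells, differed by -0.05 ± 0.09, -0.07 ± 0.09, -0.14 ± 0.10 and -0.08 ± 0.10.

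Of 13 genes of antibody secretion, 9 were tested in B cells and none passed, with 1 at an unadjusted p under 0.05, a median log2 fold change of 0.14 and all 9 between 0.01 and 0.37. Over all genes tested in B cells the median was 0.0036, and 460 of 9903 had an unadjusted edgeR p under 0.05. Both treated mice lay above both untreated mice for 3 of the 9 and below for 0, against 17.9% and 17.1% of all genes. Among the 9, Txndc5, a protein disulfide isomerase, was at 81.2 ± 5.91 CPM in treated and 63.8 ± 5.24 in untreated mice (0.34 ± 0.13, edgeR adjusted p = 0.934). Sec11c, a signal peptidase subunit, differed by 0.19 ± 0.11, Mzb1 by 0.13 ± 0.13 and Hsp90b1, a chaperone, by 0.01 ± 0.17. Of 6 genes of light chain rearrangement and the surrogate light chain, 2 had a row and Vpreb3 alone was tested (-0.05 ± 0.12). In annotated plasmablasts, where 1 of 5372 genes passed (Hbb-bs, 0.0186%), and in CD4+ and CD8+ T cells, no gene of these lists passed.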

How the data were processed

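The deposited table holds raw UMI counts per gene and cell. The authors made 3′ single-cell libraries, and mm10, Seurat 4.3.0 and Cell Ranger 7.1.0 are listed in the processing notes of the submitters. Per the study's methods, free RNA was handled with SoupX, cells were filtered by genes and mitochondrial share, and doublets were removed; the sources used here do not say whether the deposited counts are before or after SoupX. Cell types, clusters and mice came from the authors' deposited cell table, and 0 columns of values were left unused. No doublet caller was run again.

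For each annotated cell type, the counts of a mouse were added up and tested with edgeR 4.0.16 (quasi-likelihood, TMM scaling, filterByExpr, Benjamini-Hochberg threshold 0.05) in R 4.3.3, with DESeq2 1.42.0 as an alternative. Fitted levels are TMM-scaled CPM, and other CPM are unscaled. Standard errors are the log2 fold change divided by the root of the F statistic. Shares per mouse were compared by exact permutation. Thinning drew 2000 UMIs per cell without replacement and left out 276 shallower cells. Light chain classes needed 5 light chain UMIs and 80% of 1 chain. Genes were named by a fixed rule: every member, up to 4 genes a list with the highest level in B cells, the 3 genes most like a member, and genes past 0.05 between lambda and kappa cells; genes of clusters 6 and 9, haemoglobin genes and genes called in T cells were named after their values were seen. The members, lists and rules were chosen with earlier results of these data known. Some genes that the rule would name are not reported here. Only the treatment fit in B cells was run on simulated data, with changes larger than those of the members there with all mice. The other fits were not. Intervals and upper limits cover counting error only. Replicates are mice, numbered in accession order.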

Additional observations from a re-analysis of the deposited data

Results flagged for a closer look

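The treatment effects of 3 haemoglobin genes differed between annotated plasmablasts and B cells in the test of that difference (edgeR, plasmablasts minus B cells): Hbb-bs by -8.68, Hba-a1 by -7.90 and Hba-a2 by -6.33 on the log2 scale. In untreated mouse 1, 642 Hbb-bs UMIs lay in 2 annotated plasmablasts, 610 of them in 1 cell, and 213 of 223 Hba-a1 and 163 of 173 Hba-a2 UMIs also lay in 1 cell each. In the B cells of the same mouse Hbb-bs had 0 UMIs, against 313 in 93 B cells of treated mouse 1.

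Ighg2b, an IgG heavy chain gene outside the list, had 17 UMIs in treated mouse 2 and 0 in the other mice, including both untreated mice. They lay in 7 cells, and 2 B cells held 10 and 2 of them with no Ighm and no Ighd UMI.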

How the results depend on the processing

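Counts of genes past an adjusted p of 0.05 depended on the filter and on single mice. With no filter the counts were 21 in B cells (0 as reported), 13 in annotated plasmablasts (1), 11 in CD8+ T cells (2), 11 in CD4+ T cells (0) and 46 between lambda and kappa B cells (3). DESeq2 called 0 in annotated plasmablasts, 0 in CD8+ T cells, 0 for the difference between cell types (3) and 1 between lambda and kappa cells. Leaving out 1 mouse gave 10 to 16 in B cells, 3 to 13 in annotated plasmablasts, 6 to 16 in CD8+ T cells, 0 in CD4+ T cells, 1 to 5 for the difference and 3 to 4 for lambda against kappa. A lone mouse of a group is then assumed to vary like the other group. Lambda against kappa gave 12 genes with no replicate block for the mouse, 0 of 637 under 10 UMIs and 95%, 0 of 333 with equal numbers of kappa cells (edgeR, 22 and 6 at an unadjusted p under 0.05) and 23 with the Igkc cutoff chosen after seeing the data. For treated against untreated mice, no paired analysis was possible because the replicate numbers only name the mice.

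Treated minus untreated shares changed sign as follows. The lambda share of B cells (0.112 points) became -0.137 under 10 UMIs and 95%, -0.0720 under 3 UMIs, -1.06 after thinning and -0.236 with the Igkc cutoff, and ran from -0.95 to 1.17 without 1 mouse. The lambda share of annotated plasmablasts became 6.22 under 10 UMIs and 95%, -5.39 after thinning and -3.26 with the Igkc cutoff (-14.0 to -7.06 without 1 mouse). The share of B cells with both chains became 1.28 under 10 UMIs and 95% (-5.68 to 4.22). The Ighd share in B cells became 0.145 with equal cluster weights (-2.51 to 0.611), and that in annotated plasmablasts stayed negative (-2.95 to -1.29). The switched share became 0.242 with 1 UMI (-0.194 to -0.103), and the constant region share of CD4+ T cells ran from -0.00107 to 0.00279.

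Of 225 recomputed log2 differences of members and named genes, 195 kept their sign and side of the threshold. With equal cells per cluster, Ighm, Iglc1 and Iglc3 in B cells turned to -0.023, -0.070 and -0.056. Between lambda and kappa cells Ighd turned to 0.078 (RLE), 0.073 (DESeq2), 0.26 (10 UMIs and 95%) and 0.34 (equal kappa cells), and Ighm to 0.11 (10 UMIs and 95%). Without 1 mouse, B cell differences ran from -0.057 to 0.11 (Ighm), -0.11 to 0.45 (Iglc1), -0.037 to 0.34 (Iglc2), -0.063 to 0.26 (Iglc3), -2.30 to 0.18 (Igha), 0.083 to 0.25 (Igkc) and -0.082 to -0.0081 (Ighd), Ighm in CD4+ T cells from -0.056 to 0.25 and in CD8+ T cells from 0.15 to 0.48, the differences between cell types from -0.031 to 0.16 (Ighm), -0.30 to 0.46 (Iglc2) and 0.066 to 0.37 (Igkc), and Ighd between lambda and kappa cells from -0.29 to 0.013. The causes were not tested. With 2 mice a group, exact tests of shares cannot pass 0.05.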

Other observations

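Cluster 10, the 80 B cells with a low Ighd share, held 23 of the 51 Igha UMIs of B cells. It held 12 in treated mouse 2, 10 of them in 1 cell, and 11 in untreated mouse 1, all in 1 cell. It also held 12 UMIs of Nt5e, 14 of Cd80 and 8 of Zbtb32, genes of memory or B1 cells that had 5, 4 and 0 UMIs in the 1099 cells of cluster 0. Other genes of the same lists were mixed. Zeb2 was at 129 ± 54.0 CPM in cluster 10 and 131 ± 26.4 in cluster 0, and Cd5, with 1 UMI in cluster 10, at 2.51 ± 5.02 and 1.94 ± 1.47. Itgax had 0 UMIs in both clusters. Bhlhe41 had a higher mean in cluster 10, at 19.4 ± 24.2 CPM (9 UMIs) against 6.37 ± 5.45 in cluster 0. So did Tbx21, at 3.42 ± 6.85 CPM (2 UMIs) against 0.812 ± 1.09. The SD over mice exceeded the mean in cluster 10 for Cd5, Bhlhe41 and Tbx21. S100a6 was at 1024 ± 1262 CPM there (SD over 4 mice) and 13.5 ± 7.104 CPM in cluster 0, so its level differed widely between mice. Vpreb3, high in cluster 6, was at 60.6 ± 36.7 CPM in cluster 10, so the low Ighd share of clusters 6 and 10 came with opposite levels of Vpreb3.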
